A study of Homo sapiens with 10 samples.

Results

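The transcripts of 9 cadherin genes, CDH1, CDH2, CDH3, CDH4, CDH5, CDH6, CDH11, CDH13 and CDH19, were followed through melanoma cell lines sensitive or resistant to combined BRAFi/MEKi treatment. They were taken by gene symbol from the 57955 genes of the deposited tables, without regard to their values, and each symbol matched 1 gene. The 10 libraries came from WM983A, WM278 and WM902B, of primary tumour origin, from WM983B and WM1617, of metastatic origin, all BRAF V600E mutant, and from the resistant derivative (E+BRes) of each. The sensitive lines were the parental cells. The resistant lines had been selected with encorafenib (a BRAF inhibitor) and binimetinib (a MEK inhibitor), in steps from 1 nM up to 200 nM during 3 to 5 months, with 200 nM present thereafter, so resistance and the presence of the drugs cannot be told apart. WM983A and WM983B were established from the same patient, as were WM278 and WM1617, so the 5 lines stand for 3 donors. Each line is also in both groups. Tests that take the libraries as independent leave aside both facts, so their p-values can be too small or too large. Each line and state was sequenced once, so the 5 lines are the replicates of each group and a difference within a line has counting error only.

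Cadherins are calcium-dependent adhesion receptors that span the cell membrane and mostly bind the same cadherin on the neighbouring cell. Inside the cell, p120-catenin (CTNND1) holds them at the membrane, and β-catenin (CTNNB1) or plakoglobin (JUP) links them through α-catenin (CTNNA1) to actin. CDH1 (E-cadherin) is the epithelial cadherin with which melanocytes attach to keratinocytes in the epidermis, and CDH3 (P-cadherin) belongs to the same basal layer. CDH2 (N-cadherin) is the neural and mesenchymal cadherin, and its appearance in place of CDH1 is known as cadherin switching in melanoma. CDH19 is a cadherin of Schwann cell precursors and neural crest derivatives, CDH11 of mesenchyme and osteoblasts, CDH5 (VE-cadherin) of endothelium, CDH4 (R-cadherin) of retina and brain, and CDH6 (K-cadherin) of fetal kidney. CDH13 (T-cadherin) lacks the membrane-spanning and cytoplasmic parts and is held by a lipid anchor.

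The libraries held 13693922 to 18033247 counts, and 3 counts, taken as the smallest detectable level, corresponded to 0.166 to 0.219 CPM (counts scaled to equal library totals). Values below are normalised counts, that is, expected counts scaled to a common library size by the TMM method, and levels of different genes are compared only per kb of exon. Each resistant library was compared with the 5 sensitive libraries. In 4 of 5 lines it resembled that of its own line most among these, with Pearson's r of log2 values across genes of 0.869 to 0.976. The resistant WM983A library had r = 0.787 with its own sensitive library and 0.813 with the sensitive WM902B library, and its deviations from the group means had r = -0.064 with those of its sensitive library, against 0.38 to 0.675 in the other lines. Whether this library belongs to the line of its label was not tested. Each WM983A ratio therefore compares the libraries so labelled. Named genes that pass a threshold in the main edgeR fit across lines are also given without WM983A. Of 8 melanocyte lineage genes, all were above 0 in every library, and their summed level was 5569 to 68211 normalised counts in the sensitive and 1325 to 66278 in the resistant libraries.

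The 5 sensitive lines shared a repertoire of CDH2 and CDH19, and 3 of the 5 resistant lines, WM983A, WM983B and WM902B, departed from it. In the resistant WM983A cells CDH1 appeared beside CDH2 and CDH19 was nearly absent. In the resistant WM902B cells both CDH2 and CDH19 were nearly absent. The resistant WM1617 cells kept the repertoire with both genes higher. CDH19 alone was strongly lower in the resistant WM983B cells, and the resistant WM278 cells stayed within 1.26-fold of their parental line in CDH2, CDH6, CDH13 and CDH19. No cadherin was called between the groups of 5 lines at an adjusted p, or in the main edgeR fit at an unadjusted p.

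**Figure D1:**
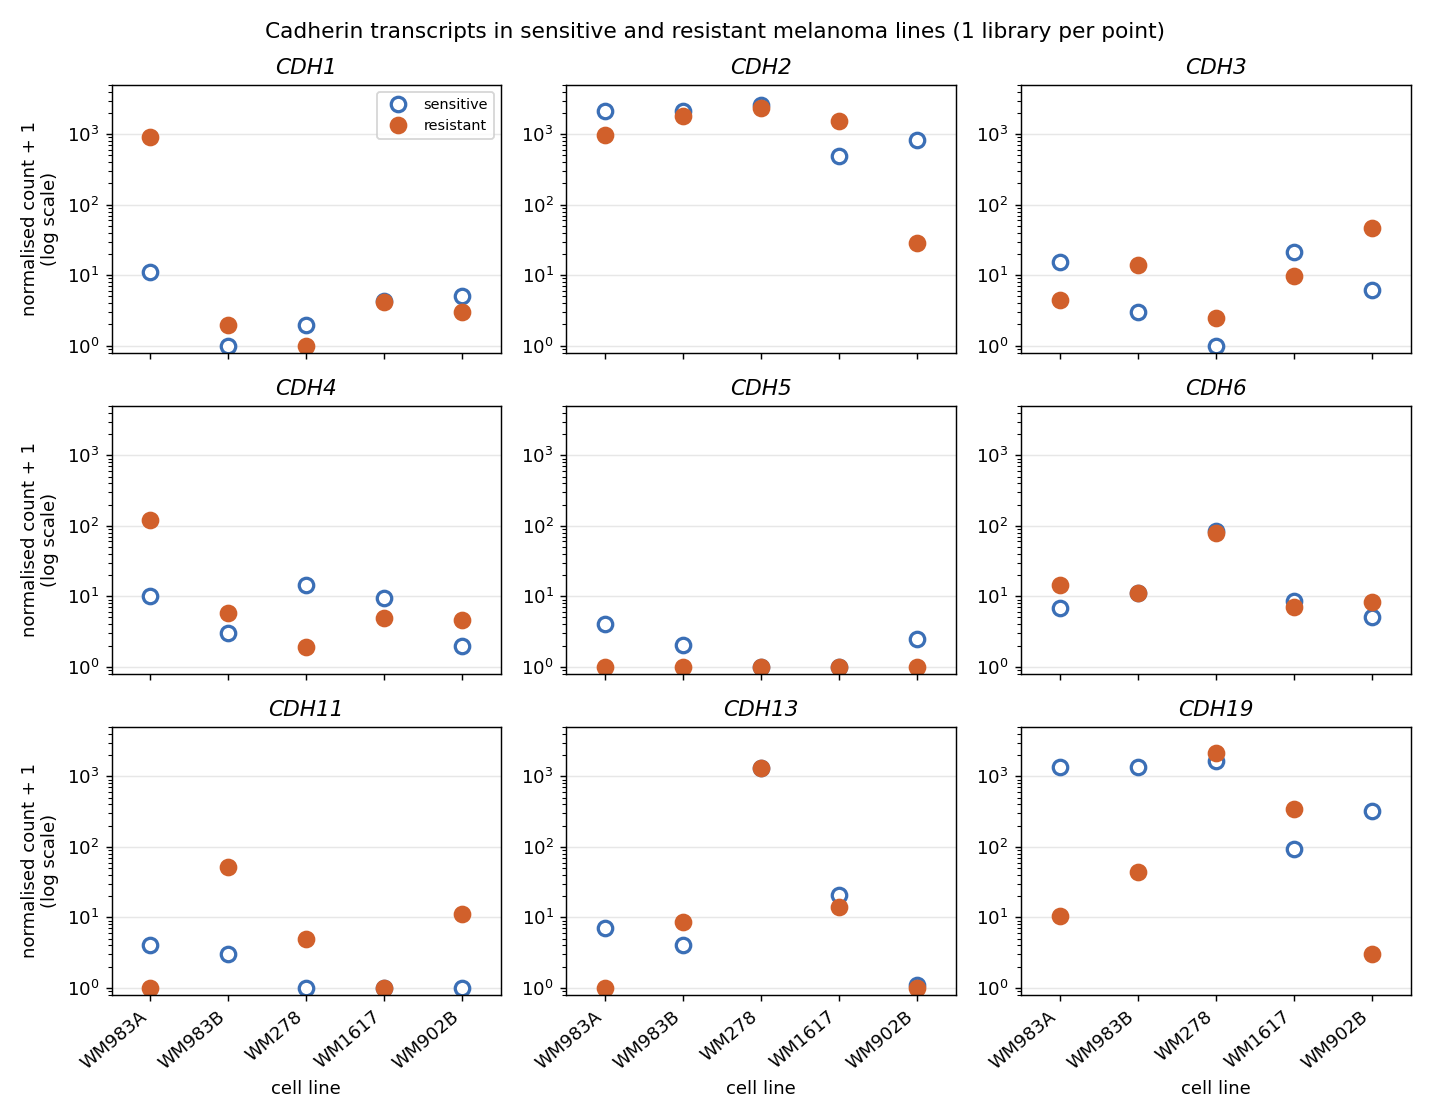
Normalised count plus 1 (log axis) of each of the 9 cadherin genes in the 5 lines, 1 library per point, with open symbols for sensitive and filled symbols for resistant cells. CDH2 lay above 400 in every library but the resistant WM902B library, CDH1 was high in the resistant WM983A library only, at 912, and CDH5 stayed at the bottom of the axis throughout.

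The regions before the starts of CDH2 and CDH19 are shown because these genes made up most of the cadherin message in the sensitive lines. Of the 9 genes, 3 (CDH2, CDH4 and CDH19) had an entry in the promoter table used here. Both sequences are from RefSeq, GRCh38.p14, minus strand, written 5′ to 3′, and were searched on both strands for 4 motifs. The E-box, read by ZEB and SNAIL factors, was CANNTG. The M-box core, which overlaps it, was CATGTG. The SOX core was ACAAAG. The AP-1 site was TGANTCA. Matches are in capitals. Neither window overlaps an annotated exon, and that of CDH2 lies within the span of the gene, in an intron of longer CDH2 transcripts.
CDH2, chr18:28177131-28177380: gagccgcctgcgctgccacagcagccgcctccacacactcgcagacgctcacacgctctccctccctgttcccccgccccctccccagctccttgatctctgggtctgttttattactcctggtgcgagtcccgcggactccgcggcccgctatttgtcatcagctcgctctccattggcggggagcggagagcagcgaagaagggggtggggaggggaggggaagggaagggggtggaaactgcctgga
CDH19, chr18:66604139-66604340: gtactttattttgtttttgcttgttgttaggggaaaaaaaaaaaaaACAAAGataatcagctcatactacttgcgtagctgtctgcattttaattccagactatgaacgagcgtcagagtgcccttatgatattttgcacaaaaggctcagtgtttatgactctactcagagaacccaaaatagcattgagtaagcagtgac
None of the 4 motifs was found in the 250 bases of CDH2. The 202 bases of CDH19 held 1 match, a SOX core that begins 204 bases before the start of transcription in RefSeq. In 35116 RefSeq promoters, windows of 202 bases held a SOX core in 11.4%, an E-box in 54.9%, an M-box core in 7.55% and AP-1 in 5.33%. In windows of 250 bases the shares were 13.7%, 61.8%, 9.42% and 6.57%. These matches describe letters only.

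CDH2 (ENSG00000170558, chr18:27932879-28177946, minus strand, GRCh38) was the leading cadherin of the sensitive cells. Its normalised counts in sensitive WM983A, WM983B, WM278, WM1617 and WM902B were 2109, 2111, 2566, 485 and 830, a mean of 1620 ± 907 (SD, n = 5). In the resistant libraries, in the same order, they were 989, 1795, 2350, 1554 and 27.4, a mean of 1343 ± 883 (SD, n = 5). The groups overlapped over most of their range, and a single library, resistant WM902B, lay far under all others.

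Within WM902B, CDH2 was 30.3-fold lower in the resistant cells (95% interval from counting error 20.4 to 45.5). In WM983A it was 2.13-fold lower (1.97 to 2.31). In WM1617, which had the lowest sensitive level, it was 3.21-fold higher in the resistant cells (2.89 to 3.57). WM983B and WM278 had 1.18-fold (1.10 to 1.25) and 1.09-fold (1.03 to 1.15) lower levels. The 37 other tested genes within 5000000 bases of CDH2 had a median log2 ratio of 0.09 in WM902B. Of them, 8 were at least 2-fold lower, beside 12.0% of all genes. In WM983A, WM983B, WM278 and WM1617 their medians were -0.37, -0.26, -0.19 and 0.35, against -1.09, -0.23, -0.13 and 1.68 for CDH2. In WM1617, 2 of the 37 were at least 2-fold higher and 2 lower, beside 2.83% and 3.79% of all genes.

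Across lines, edgeR's quasi-likelihood test gave CDH2 a log2 fold change of -0.27 (SE 0.81), resistant against sensitive, with a Benjamini-Hochberg adjusted p of 0.969. The mean log2 level was lower by 0.93 in the resistant libraries with an exact permutation p of 0.643. That difference rested on WM902B. Without this line it was 0.06 with an exact permutation p of 0.943.

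CDH1 (ENSG00000039068, chr16:68737292-68835537, plus strand) was close to the detection limit in 9 of the 10 libraries. The counts were 10, 0, 1, 3 and 4 in sensitive WM983A, WM983B, WM278, WM1617 and WM902B. In the resistant libraries they were 781, 1, 0, 4 and 2. Only resistant WM983A held a level comparable with that of CDH2, and the other 4 resistant libraries lay inside the range of the sensitive ones.

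In WM983A, CDH1 went from 10.0 to 912 normalised counts, 91.2-fold higher (49.3 to 191). Per kb of exon, CDH1 reached 150 and CDH2 115 normalised counts per kb in the resistant WM983A cells, against 1.65 and 246 in their sensitive parent. CDH1 was thus the leading cadherin of the resistant cells, while CDH2 remained at 40.5% of the summed cadherin level. Both transcripts were present in the same culture, and bulk RNA cannot tell cells that carry both from a mixture of cells that carry either. Nor can fewer cells of a kind be told apart from less RNA per cell.

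CDH1 passed no filter on low counts and so received no test across genes in the main fit. The mean log2 difference between the groups was 1.12 with an exact permutation p of 0.786, and without WM983A it was -0.19 with an exact permutation p of 0.771. In WM983B and WM278 both libraries were at or under 3 counts, and in WM1617 and WM902B the ratios were 0.99 (0.18 to 7.30) and 0.50 (0.05 to 3.54), intervals that include equality.

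**Figure D2:**
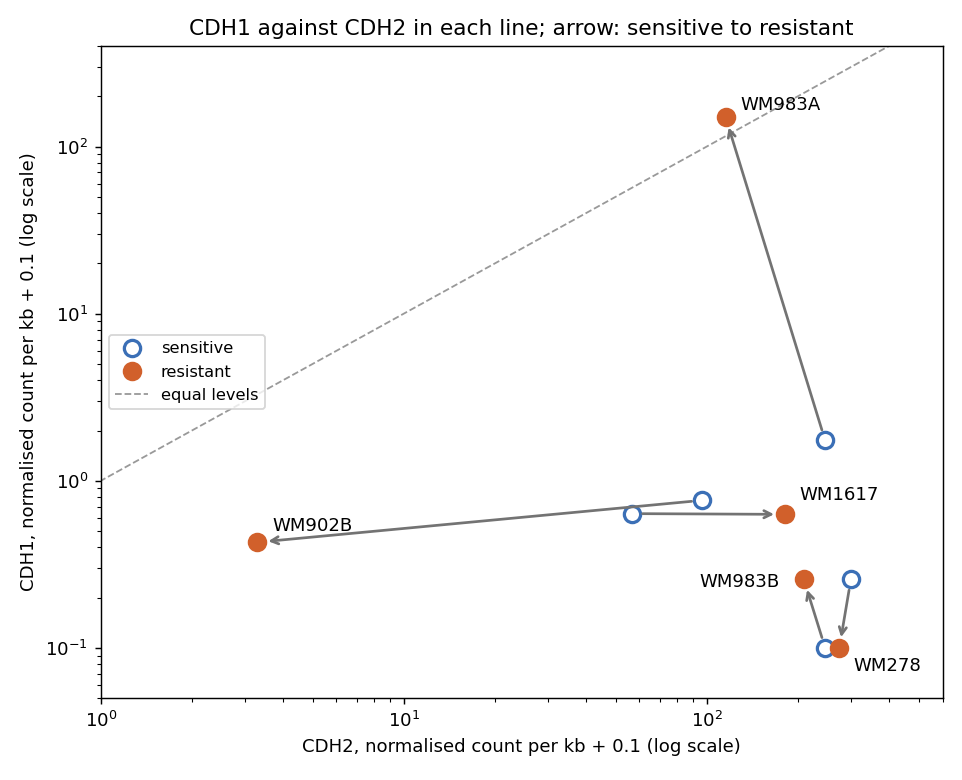
CDH1 (vertical) against CDH2 (horizontal), as normalised count per kb of exon plus 0.1 on log axes, with an arrow from the sensitive (open) to the resistant (filled) library of each line and a dashed line at equal levels. Resistant WM983A alone crossed the dashed line, WM902B moved left, with less CDH2 and no more CDH1, and WM1617 moved right.

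CDH3 (ENSG00000062038, chr16:68636189-68727468, plus strand) lies head to tail with CDH1 and ends 9823 bases before it. It did not follow CDH1. Its counts were 14, 2, 0, 19 and 5 in the sensitive libraries, in the order used above, and 3, 14, 2, 10 and 45 in the resistant ones. In WM983A, where CDH1 was high, CDH3 was lower, at 14 and 3 counts, a ratio of 0.25 (0.05 to 0.90). In WM902B it was 8.80-fold higher (3.63 to 29.4), and in WM983B, from 2 to 14 counts, the ratio was 6.39 (1.52 to 60.1). WM1617 had 2.37-fold less (1.05 to 5.71). The direction therefore differed between lines, and the groups did not separate (mean log2 difference 0.70, exact permutation p = 0.532). The 137 other tested genes within 5000000 bases of CDH1 had a median log2 ratio of 0.21 in WM983A, far from the 6.38 of CDH1.

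CDH19 (ENSG00000071991, chr18:66501083-66604138, minus strand) varied more between the resistant lines than CDH2, with an SD of 3.81 on the log2 scale against 2.64. Sensitive WM983A, WM983B, WM278, WM1617 and WM902B held 1373, 1347, 1679, 91.0 and 319 normalised counts, a mean of 962 ± 707 (SD, n = 5). Their resistant derivatives held 9.34, 42.9, 2119, 348 and 2.06, a mean of 504 ± 914 (SD, n = 5). Of the resistant libraries, 3 lay under every sensitive library, and the resistant WM278 library lay above them all.

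In WM983A, CDH19 was 147-fold lower in the resistant cells (74.4 to 341). In WM983B it was 31.4-fold lower (23.3 to 43.2). In WM902B 314 counts stood against 2, a ratio of 155 (42.5 to 1285). In WM1617 it was 3.83-fold higher (3.01 to 4.89) and in WM278 1.26-fold higher (1.19 to 1.35). The 22 other tested genes within 5000000 bases had median log2 ratios of -0.82, -0.13 and -0.14 in WM983A, WM983B and WM902B, against -7.05, -4.94 and -6.71 for CDH19. At least 2-fold lower were 8, 2 and 5 of the 22, beside 19.4%, 11.2% and 12.0% of all genes. In WM1617 and WM278 the medians of the 22 were 0.48 and -0.45, against 1.93 and 0.34 for CDH19. At least 2-fold higher in these lines were 5 and 0 of the 22, beside 2.83% and 12.0% of all genes. The part of the region in the level of CDH19 was not tested.

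EdgeR gave CDH19 a log2 fold change of -0.93 (SE 1.42) with an adjusted p of 0.923, and the mean of the log2 values differed by -3.29 between the groups (exact permutation p = 0.127). With each line as its own block, the log2 fold change became -3.56 (SE 2.05) with an adjusted p of 0.537 by the same edgeR test. Without WM278, the line with the highest level, the unblocked log2 fold change was -2.94, and without WM983A, WM983B, WM1617 or WM902B it was -0.45, -0.47, -1.12 or -0.82. Without WM983A the mean difference was -2.35 (exact permutation p = 0.371).

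CDH19 and SOX10, the transcription factor of neural crest, Schwann cells and melanocytes, were low in the same resistant lines. SOX10 stood at 5198, 4663, 4845, 5229 and 4844 normalised counts in the sensitive lines, in the same order, and at 98.4, 192, 4166, 5136 and 10.1 in the resistant ones. The 3 lines with low SOX10 were the 3 with low CDH19, and in the other 2 SOX10 changed by less than 0.3 on the log2 scale. In WM1617 CDH19 was 3.83-fold higher at a SOX10 log2 ratio of -0.03, and the sensitive lines spanned 91.0 to 1679 normalised counts of CDH19 at 4663 to 5229 of SOX10. Of the 6 Schwann and neural crest genes, 6 were at least 2-fold lower in resistant WM983A, 6 in WM983B and 6 in WM902B, beside 19.4%, 11.2% and 12.0% of all genes. None was lower in WM278 or WM1617, where 3 and 2 were at least 2-fold higher, beside 12.0% and 2.83% of all genes. Most melanocyte lineage genes were lower than in the parental cells in the same 3 resistant lines. The summed level of the 8 genes went from 44797 to 1325 normalised counts in WM983A, from 27869 to 2382 in WM983B and from 42238 to 3955 in WM902B, with 8, 6 and 5 of them at least 2-fold lower beside those same shares. In WM278 the sum went from 5569 to 4881 and in WM1617 from 68211 to 66278. In the fit across lines, 1 of these 6, NGFR (log2 fold change -5.93), was past 2-fold at an unadjusted edgeR p, of 0.00589, against 0.879% of all genes in that direction, with an adjusted p of 0.63. Without WM983A the log2 fold change of NGFR was -4.92 (unadjusted edgeR p 0.0278), and with each line as its own block it was -3.52 and no longer past the threshold (unadjusted edgeR p 0.198). ERBB3, the neuregulin receptor of Schwann cell precursors, had a log2 fold change of -2.13 with an edgeR adjusted p of 0.732. The part of SOX10, or of the melanocyte lineage genes, in the level of CDH19 was not tested.

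**Figure D3:**
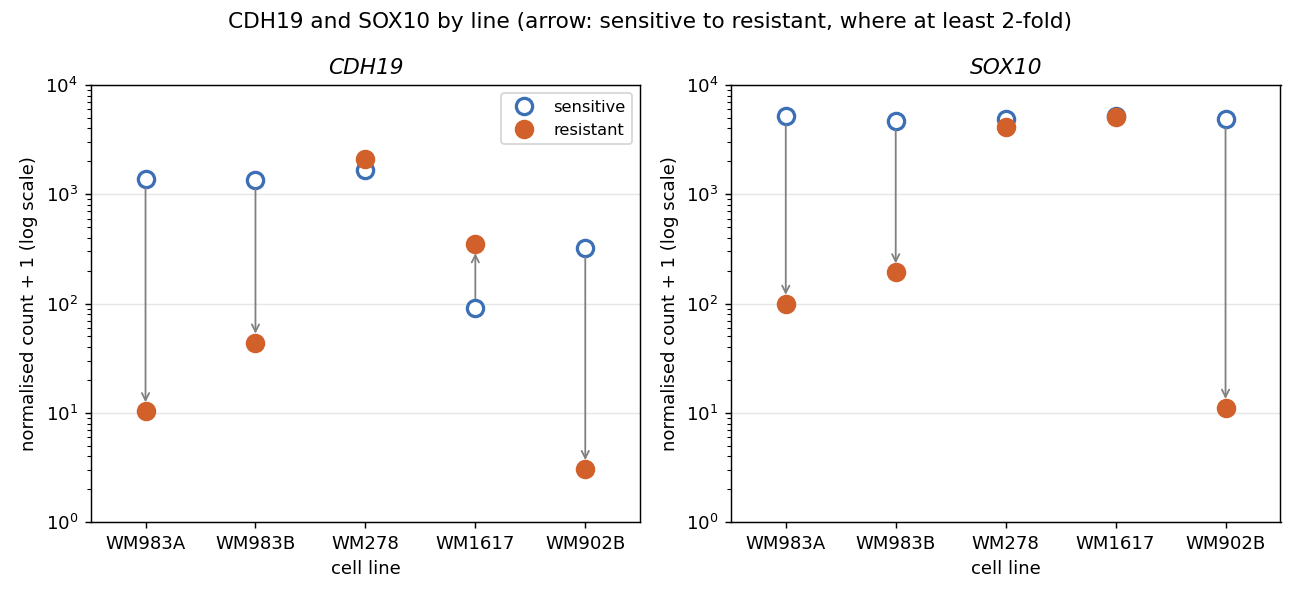
Normalised count plus 1 (log axis) of CDH19 (left) and SOX10 (right) in sensitive (open) and resistant (filled) cells of each line, with an arrow where the states differed at least 2-fold. Both genes were low in resistant WM983A, WM983B and WM902B, and neither was lower at least 2-fold in WM278 or WM1617.

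CDH13 (ENSG00000140945, chr16:82626965-83800640, plus strand) marked a line rather than a state. WM278 held 1316 normalised counts in the sensitive and 1328 in the resistant cells, a ratio of 1.01 (0.94 to 1.09). Every other library had 19.6 or fewer. Counts in sensitive WM983A, WM983B, WM1617 and WM902B were 6, 3, 18 and 0, and in their resistant cells 0, 8, 15 and 0. In WM983A, 6 counts against 0 were at least 1.71-fold lower in resistant cells, taking 3 counts for the empty library. The mean log2 difference was -0.47 (exact permutation p = 0.825), and it changed sign to 0.11 without WM983A.

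CDH6 (ENSG00000113361, chr5:31193686-31329146, plus strand) was also highest in WM278, with 82.9 and 77.0 normalised counts in the sensitive and resistant cells. The sensitive libraries of the other lines held 4.07 to 10.1 and the resistant ones 6.10 to 13.4. In none of the 5 lines did the counting interval of the ratio exclude equality, the ratios being 0.80 to 2.28. CDH6 passed the filter, and edgeR put the log2 fold change at 0.03 (SE 0.99, adjusted p 0.998).

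CDH4 (ENSG00000179242, chr20:61252261-61940617, plus strand) had 1 library that stood out, again resistant WM983A. Counts were 9, 2, 14, 8 and 1 in the sensitive and 104, 5, 1, 4 and 4 in the resistant libraries. The difference in WM983A was 13.6-fold higher (6.84 to 30.3), in the same library as that of CDH1. In WM278, 14 counts against 1 gave a ratio of 14.5 in favour of the sensitive cells (2.09 to 582). The remaining 3 intervals included equality, and across lines the exact permutation p was 0.849.

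CDH11 (ENSG00000140937, chr16:64943753-65126112, minus strand) was at or under 3 counts in all 5 sensitive libraries, with 3, 2, 0, 0 and 0. The resistant libraries held 0, 53, 4, 0 and 10. In WM983B the ratio was 25.2 (6.62 to 213), and in WM902B 10 counts against 0 were at least 3.38-fold higher. In WM278, 4 counts against 0 had an interval that included equality. WM983A and WM1617 had no counts in the resistant cells. Across lines the mean log2 difference was 1.58 (exact permutation p = 0.246).

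Fibroblast genes were read in the same libraries and went both ways in WM983B, the line with most CDH11. There 3 of 6 were at least 2-fold higher and 1 lower, beside 16.2% and 11.2% of all genes. In WM902B 4 of 5 were higher and 0 lower, beside 15.4% and 12.0%. In WM278 4 of 6 were higher and 1 lower, beside 12.0% and 7.02%. WM983A, without CDH11 in its resistant cells, had 1 of 6 higher and 4 lower, beside 16.9% and 19.4%. In WM1617, also without CDH11, 1 of 5 was higher and 1 lower, beside 2.83% and 3.79%. The summed level of 6 fibroblast genes was 203 to 1227 normalised counts in the sensitive libraries and 137, 3537, 1479, 334 and 25461 in resistant WM983A, WM983B, WM278, WM1617 and WM902B. Of these 6 genes, COL1A1 (a fibrillar collagen chain, log2 fold change 6.11, unadjusted p 0.00558) and PDGFRB (a receptor of mesenchymal cells, 4.55, unadjusted p 0.0178) were past 2-fold at an unadjusted edgeR p, with adjusted p of 0.63 and 0.632. They were 2 of 5 tested genes of the list, beside 3.53% of all genes higher at that threshold. Without WM983A the log2 fold changes were 6.16 and 4.88 (unadjusted edgeR p 0.0093 and 0.0236). With each line as its own block COL1A1 had 4.34 (unadjusted edgeR p 0.0126) and PDGFRB 2.89, no longer past the threshold (unadjusted edgeR p 0.0568), nor was PDGFRB without WM983B (unadjusted edgeR p 0.0582). PDGFRA, next by p (log2 fold change 2.99, unadjusted edgeR p 0.062), went from 9.07 to 36.7 in WM983B and from 32.0 to 1585 in WM902B. DCN, a proteoglycan that defines fibroblasts, went from 13.1 to 1.91 in WM983B and from 15.2 to 67.9 in WM902B. It was not among the genes with the smallest p of the list. LUM, another gene of the list, went from 1168 to 876 in WM983B and from 419 to 433 in WM902B. Of the sum in resistant WM902B, 18771 was COL1A1. The part of fibroblasts in the level of CDH11 was not tested.

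CDH5 (ENSG00000179776, chr16:66366690-66404784, plus strand) was at or under 3 counts everywhere, with 3, 1, 0, 0 and 1 counts in the sensitive and 0 in all 5 resistant libraries. No fold is given for it, and its exact permutation p was 0.167. The summed level of 10 endothelial genes was 41.9 to 914 normalised counts in sensitive and 21.9 to 288 in resistant libraries. The top of that range was KDR, a VEGF receptor, at 811 in sensitive WM278, a gene singled out after its values were seen.

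**Figure D4:**
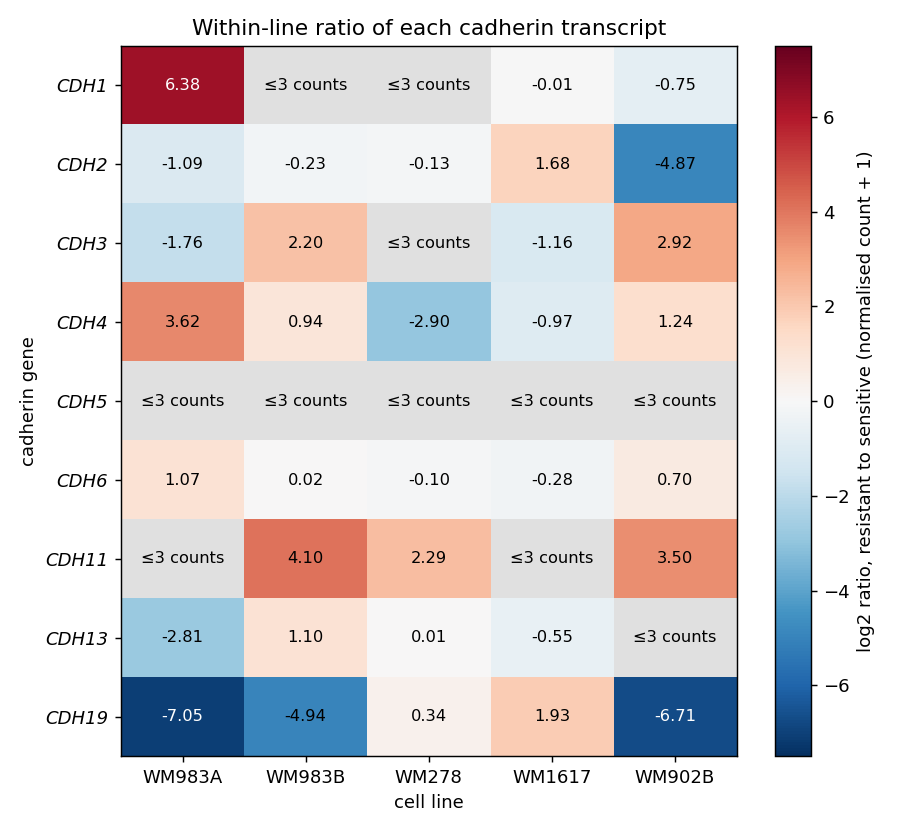
Ratio (log2) of resistant over sensitive normalised counts, after adding 1, for each cadherin gene (rows) in each line (columns), with red for higher and blue for lower in resistant cells and grey where both libraries held 3 counts or fewer. No row kept a single colour at 2-fold or more across the 5 lines, and the largest values were -7.05 and -6.71 for CDH19 and 6.38 for CDH1.

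Counted by line at a 2-fold difference, and leaving out pairs with 3 counts or fewer in both states, WM983A had 3 cadherins higher and 4 lower of the 7 that could be compared. There 16.9% of all tested genes were higher and 19.4% lower, 36.3% in all. WM983B had 3 higher and 1 lower of 7, beside 16.2% and 11.2% of all genes, 27.4% in all. WM278 had 1 higher and 1 lower of 6, beside 12.0% and 7.02%, 19.0% in all. WM1617 had 2 higher and 1 lower of 7, beside 2.83% and 3.79%, 6.63% in all. WM902B had 3 higher and 2 lower of 7, beside 15.4% and 12.0%, 27.4% in all. These counts describe single pairs of libraries, and low counts enter them, as in CDH4 of WM902B, from 1 to 4 counts.

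Between the groups, 3 of the 9 genes (CDH2, CDH6 and CDH19) passed the filter on low counts. None of the 3 was called by edgeR at 2-fold and an adjusted p of 0.05, where 0.00% of 17287 genes were called. None was called at an unadjusted p of 0.05 either, beside 4.41% of all genes, nor by limma-voom or DESeq2 at either p (DESeq2 gave CDH6 no p). DESeq2 with the lines as blocks called CDH19 at its unadjusted p and not at its adjusted p. No cadherin had resistant values all above or all under the sensitive ones, which held for 0.758% of tested genes. The smallest two-sided p that 5 against 5 libraries allow in the permutation test is 0.00794.

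Per kb, the 9 genes summed to 453, 444, 671, 77.0 and 145 normalised counts per kb in sensitive WM983A, WM983B, WM278, WM1617 and WM902B. CDH2 came first and CDH19 next in all 5, with CDH2 at 44.5% to 73.3% and CDH19 at 17.2% to 44.2% of the sum. In the resistant cells the sums were 285, 224, 710, 236 and 12.9. CDH2 alone made up 93.6% of the sum in resistant WM983B, and 76.7% in resistant WM1617 beside 21.5% of CDH19. In resistant WM278, CDH19 (43.5%) stood just ahead of CDH2 (38.6%), with CDH13 at 17.0%. In resistant WM902B the total was so low that CDH3, at 46.3 normalised counts, was 56.1% of it.

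**Figure D5:**
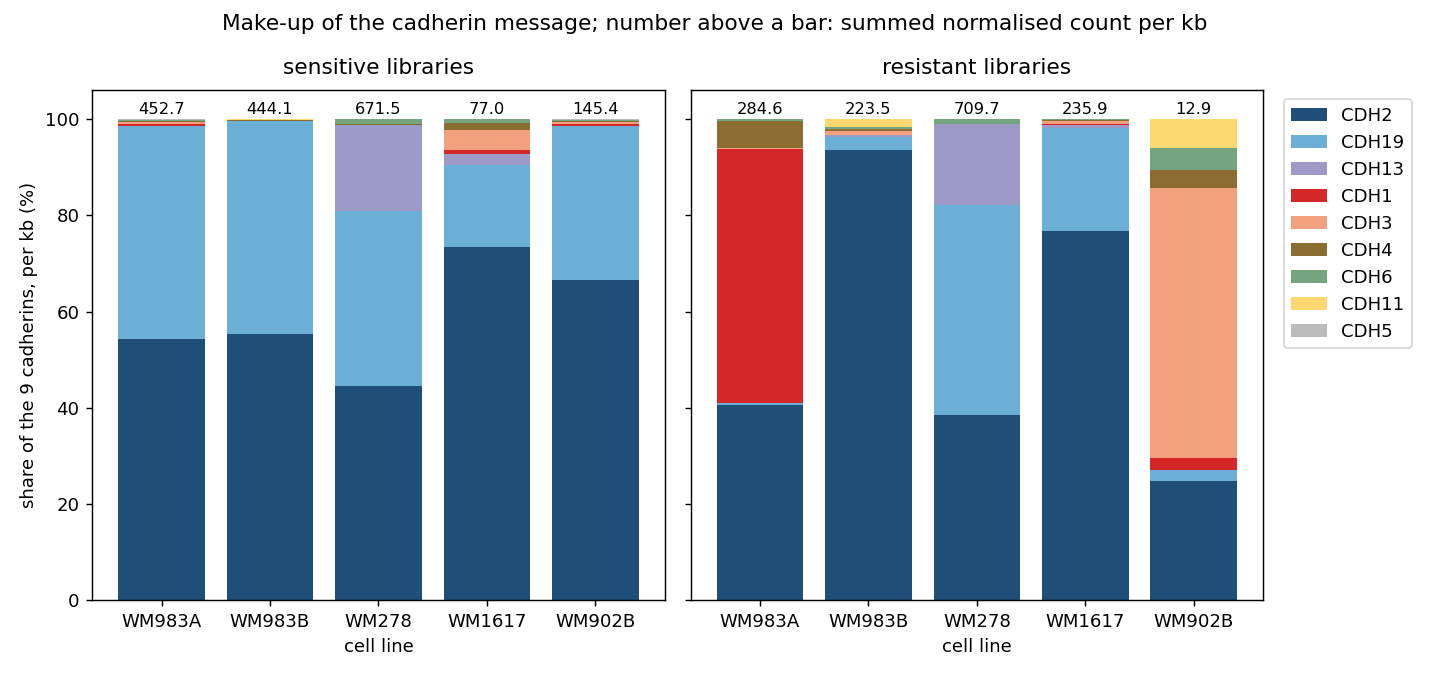
Share (%) of each of the 9 cadherin genes in their summed level per kb of exon, for sensitive (left) and resistant (right) libraries of each line, with the summed normalised count per kb printed above each bar. CDH2 and CDH19 filled over 80% of all 5 sensitive bars, and the resistant bars differed from each other, with CDH1 first in WM983A and CDH3 first in WM902B on a sum of 12.9.

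Of a list of 11 other cadherins, 2 (CDH15 and CDH24) passed the filter, and neither was past 2-fold at an unadjusted edgeR p. At most 6 of the 11 could be compared in any line. CDH24, a widely expressed type II cadherin, was higher in the resistant cells of all 5 lines, at 115 to 377 normalised counts in sensitive and 311 to 549 in resistant libraries. Its log2 fold change was 0.96 with an unadjusted edgeR p of 0.021, which is short of 2-fold, and 1.04 with the lines as blocks (unadjusted p 0.00458). CDH15 (M-cadherin of muscle) went from 923 to 5.19 normalised counts in WM983A and from 402 to 79.2 in WM983B, but from 287 to 607 in WM1617. CDH7 was lower in WM983A and WM983B, at 93.7 and 124 normalised counts in the sensitive and 26.9 and 18.9 in the resistant cells. CDH26 had 0 to 5 counts in the sensitive libraries and 20, 18, 13, 2 and 28 in the resistant ones.

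The catenins are the partners of all these cadherins except CDH13, which has no cytoplasmic part. Of them, CTNNB1, CTNND1 and CTNNA1 differed by less than 2-fold in all 5 lines. CTNNB1 had a log2 fold change of -0.44 (unadjusted p 0.0498, adjusted p 0.699 by edgeR), and CTNND1 of 0.27 (adjusted p 0.794). CTNNA1 split the lines rather than the states, at 345 and 518 normalised counts in sensitive WM1617 and WM902B against 7078 to 10608 in the other 3, and at 327 and 312 against 5095 to 7448 in the resistant cells.

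JUP had the largest log2 fold change of the tested catenins and anchors. It stood at 62.0, 75.4, 42.7, 23.7 and 20.3 normalised counts in sensitive WM983A, WM983B, WM278, WM1617 and WM902B, and at 268, 268, 123, 24.4 and 227 in the resistant cells. Its log2 fold change was 2.02 (SE 0.62, edgeR unadjusted p 0.00847, adjusted p 0.63), with WM1617 alone under 2-fold. VCL (vinculin, which ties α-catenin to actin) followed with 1.28 (SE 0.40, unadjusted p 0.0085, adjusted p 0.63), from 967 to 2273 in sensitive and 1352 to 5483 in resistant libraries. Without WM983A, JUP had a log2 fold change of 1.98 (unadjusted edgeR p 0.0276) and VCL 0.96, under 2-fold (unadjusted edgeR p 0.0517). These were the 2 of 10 tested catenin and anchor genes past 2-fold at the unadjusted p, both higher, beside 3.53% of all genes in that direction, and the median log2 fold change of the list was 0.05 against 0.03 over all genes.

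Desmosomes use relatives of the cadherins, and 1 of 4 tested desmosome genes was past 2-fold at the unadjusted p, beside 3.53% of all genes higher. This was PKP3, a plakophilin that binds desmosomal cadherins, with a log2 fold change of 4.72 (unadjusted edgeR p 0.00581, adjusted p 0.63), or 3.06 without WM983A (unadjusted edgeR p 0.0383). PKP3 went from 17.0 to 1506 normalised counts in WM983A and from 21.4 to 359 in WM983B. DSP (desmoplakin) went from 73.0 to 1659 in WM983A and from 119 to 7.21 in WM902B, and DSG2 (desmoglein) from 171 to 1737 in WM983A. In resistant WM983A, the library with CDH1, 6 of the 7 desmosome genes above 3 counts were at least 2-fold higher and none was lower, beside 16.9% of all genes higher and 19.4% lower.

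Other epithelial genes in resistant WM983A went both ways. Of 9 epithelial genes above 3 counts there, 5 were at least 2-fold higher and 2 lower, beside the same shares of all genes. ESRP1, an epithelial splicing factor, was among the lower ones, at 408 and 8.18 normalised counts, and GRHL1 went from 176 to 38.1. ELF3 (6.0 to 886) and EPCAM (2.0 to 169), which were singled out after their values were seen, were among the higher ones. Across lines, ESRP1 and GRHL1 were past 2-fold and lower at an unadjusted edgeR p (log2 fold changes -2.61 and -1.38, unadjusted p 0.0325 and 0.0486, adjusted p 0.686 and 0.699), 2 of 3 tested epithelial genes beside 0.879% of all genes. Neither passed without WM983A (log2 fold changes -2.05 and -1.10, unadjusted edgeR p 0.121 and 0.168), nor without WM983B (unadjusted edgeR p 0.106 and 0.0966) or WM902B (0.0819 and 0.0636), and GRHL1 did not without WM278 (0.0555).

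Keratinocytes also express CDH1, so their markers were read in the same libraries. The summed level of 7 keratinocyte genes was 319 to 884 normalised counts in sensitive libraries and 378 to 1124 in 4 of the resistant ones, against 5337 in resistant WM983A. Of that sum, 4014 was SFN, a 14-3-3 protein singled out after its values were seen, and 1309 was KRT10. The defining KRT5 had 10 counts there, KRT14 1, TP63 1, and KRT1 and DSG3 0.

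The factors that repress CDH1 through E-boxes were read among 7 EMT transcription factors. In WM983A, where CDH1 was high, 5 of the 7 were at least 2-fold lower and 2 higher, beside 19.4% and 16.9% of all genes. Of the lower ones, SNAI2 went from 1714 to 58.9, TWIST1 from 815 to 316, and ZEB2, singled out after its values were seen, from 1861 to 93.4. ZEB1 was among the higher ones, with 0 counts in sensitive WM983A and 454 normalised counts in its resistant cells. In WM902B, where CDH2 was low, ZEB1 went from 71.9 to 723 and SNAI2 from 2273 to 4377. None of the 7 EMT transcription factors was past 2-fold at an unadjusted edgeR p across lines, and the median log2 fold change was 0.19. The part of these factors in the levels of CDH1 or CDH2 was not tested.

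Among 7 tested mesenchymal genes, COL1A1 and TAGLN (transgelin, log2 fold change 2.87, unadjusted p 0.00992, adjusted p 0.63) were past 2-fold and higher, beside 3.53% of all genes, and none was lower. TAGLN had 3.23 without WM983A (unadjusted edgeR p 0.0113) and 1.26 without WM278, no longer past the threshold (unadjusted edgeR p 0.0546). VIM (vimentin), commonly read beside CDH2, had a log2 fold change of -0.51 (adjusted p 0.752), with 58800 to 79158 normalised counts in sensitive and 27703 to 62062 in resistant libraries. CDH2-poor WM902B cells kept 58650. Of the 8 tested genes for shedding and turnover of cadherins, none was past 2-fold at an unadjusted edgeR p. Among them were MMP9 (log2 fold change 4.10, adjusted p 0.732) and FURIN, which cleaves cadherin precursors (-0.79, adjusted p 0.743).

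By origin, the sensitive lines were compared as 2 metastatic against 3 primary, in a fit that leaves aside that each metastatic line shares its donor with a primary one. Of the 9 genes, 5 passed the filter in these libraries. None was called by edgeR at an adjusted p, where 0.00% of 18117 genes were called, or at an unadjusted p, beside 1.41%. The log2 fold changes of metastatic against primary lines were -0.51 (SE 0.77) for CDH2, -0.65 (SE 1.19) for CDH19, 0.83 (SE 1.57) for CDH3, -1.80 (SE 1.49) for CDH6 and -5.28 (SE 3.29) for CDH13, each with an adjusted p of 1.00. CDH6 and CDH13 were high in WM278, a primary line, and low in the other 4.

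Across the 10 libraries, which are 5 pairs from the same lines and so not independent, CDH2 and CDH19 had r = 0.78 of log2 levels and CDH2 and CDH3 r = -0.70. The r of CDH1 and CDH4 was 0.85, with both highest in the resistant WM983A library. The genes whose pattern over the 10 libraries was most like that of CDH2 were HOXB9 (r = 0.94), RP11-977G19.12 (0.93) and the gene listed as ENSG00000270299 (0.93). For CDH19 they were the gene listed as ENSG00000254416 (0.98), BCL2 (0.96) and RHOJ (0.96), and for CDH6 POT1 (0.97), SMURF1 (0.97) and SDK1 (0.96). These are the highest of 17287 values and are given as descriptions.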

How the data were processed

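Single-end sequencing (75 cycles) covered oligo-dT selected mRNA of 10 cell lines. The authors used HISAT2 for alignment to GRCh38 and StrandNGS for normalisation and statistics. The tool that counted reads per gene, versions and gene annotation are not given in the sources used here. The raw values deposited are expected counts, of which 24.1% of those above 0 are whole. The normalised values deposited are on a log2 scale, as ratios to the sensitive library of the line, and were used only to recover 455 raw values of sensitive WM983B that a spreadsheet had turned into dates. None of the 9 cadherins was among them.

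Counts were rounded, filtered with filterByExpr (17287 genes kept), scaled by TMM and compared by the quasi-likelihood test (glmQLFit, glmQLFTest) of edgeR 4.0.16 in R 4.3.3, 5 resistant against 5 sensitive libraries, two-sided. DESeq2 1.42.0 and limma 3.58.1 gave alternatives, and Python 3.11.15 with scipy 1.17.1 the exact permutation tests. Thresholds were 2-fold and p of 0.05, unadjusted or Benjamini-Hochberg adjusted. Within-line ratios add 1 to both normalised counts, and folds with 95% exact intervals use none. Folds against 0 counts take 3 counts per library as a bound. Intervals cover counting error only. How reads shared between genes were counted, and whether strand was used, is not given in the sources used here. Positions and exon lengths are from GENCODE release 44. The lines pair the libraries, since each resistant line derives from the sensitive line of its name. Deviations from the group means correlated within lines at -0.064 to 0.675. The fits were tested on simulated data. Named genes were the 9 cadherins, up to 4 per list by smallest p, fixed catenins and repressors, other cadherins past 2-fold in 3 lines, and the 3 genes most like each tested cadherin, and some of these are not reported here. Members and lists were chosen with earlier results of these data known.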

Additional observations from a re-analysis of the deposited data

Results flagged for a closer look

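Of 23 groups of 5 values examined for a value far from the rest (the levels of each cadherin in the sensitive and in the resistant lines, and its 5 within-line log2 ratios), 5 held one. About 1 group in 20 would for independent, normally distributed values. Here many values lie at or under 3 counts and a library enters several groups, so the 5 cannot be set against that rate. CDH1 stood out in resistant WM983A both by its level, 912 normalised counts, and by its log2 ratio, 6.38. CDH4 stood out in the same library, at 122 normalised counts. CDH2 stood out in resistant WM902B, at 27.4 normalised counts, the lowest of the resistant lines. CDH6 stood out in sensitive WM278, at 82.9 normalised counts, and its resistant derivative was as high.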

How the results depend on the processing

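Of 367 values recomputed under alternatives, 341 kept their direction, side of the threshold or approximate count. No cadherin was called at an adjusted p under any alternative. With the lines as a replicate block, edgeR gave -0.68 for CDH2, 0.26 for CDH6 and -3.56 for CDH19, and no call changed. DESeq2 with a replicate block put CDH19 at -4.03 (unadjusted p 0.00193, adjusted p 0.0565), so 1 cadherin passed at the unadjusted p. Without a filter 3 did: CDH1, CDH5 and CDH11, with adjusted p of 0.623. Of these, CDH1 had 781 counts in resistant WM983A and at most 10 elsewhere. CDH5 had at most 3 counts in any library, and CDH11 had most, 53, in resistant WM983B. The fit without a filter and DESeq2 with the block were not repeated without WM983A. The genes called at an adjusted p were 0 in the report, 106 with DESeq2 and 507 with DESeq2 and a replicate block. At an unadjusted p they were 763, against 2258 of 38285 genes without a filter and 1492 with DESeq2 and the block, and 420 (without WM902B) to 1493 (without WM1617) when a line was left out, with 421 without WM983B. For CDH6 the direction turned without a filter (-0.0012), and edgeR values with a line left out ran from -0.067 (without WM983A) through -0.0014 (without WM902B) to 0.054, with no fit without WM983B or WM278, where CDH6 failed the filter. The mean log2 difference ranged, when a line was left out, from -0.19 to 1.65 for CDH1, -1.58 to 0.06 for CDH2, -0.42 to 1.21 for CDH4 and -0.86 to 0.11 for CDH13. At 4-fold, 4 cadherins of WM983A and 0 of WM1617 were past the threshold, and with 5 added to the counts 1 of WM278. By origin, DESeq2 called 25 genes at an adjusted p and 520 at an unadjusted p, against 0 and 255, and 613 without a filter. Leaving out a line gave 173 to 976 genes and 0 to 1 cadherins, CDH19 without WM983B, where the lone metastatic line is taken to vary like the others. Counts of 3 or fewer in 35 of 90 values limit CDH1, CDH3, CDH4, CDH5, CDH11 and CDH13. The cause of these changes was not tested.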
